A study of Homo sapiens with 8 samples.

Results

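Osteosarcoma cells that carried an shRNA against ZDHHC8 and received cisplatin were compared with the same line carrying a control shRNA and receiving vehicle, so the comparison holds the joint effect of both perturbations. It covers 4 of the 8 libraries of the series and all genes of the deposited table: the shZDHHC8 cisplatin group and the shControl vehicle group, each with 2 libraries labelled as biological replicates. The cells are labelled 143B, a human osteosarcoma line, and bone is given as the tissue. The shControl cells are labelled wild type and received PBS, and the other group is labelled as a ZDHHC8 knockdown and received cisplatin. Every group carries a stably expressed shRNA, was harvested after 48 h of treatment and belongs to batch 1. The dose of cisplatin, the number of different shRNAs and whether the stable lines are clones or pools were not given in the sources used here. The remaining groups, shControl with cisplatin (cisplatin alone) and shZDHHC8 with vehicle (knockdown alone), share a perturbation with the treated knockdown cells and are given beside the results for orientation.

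ZDHHC8 encodes a membrane-bound palmitoyltransferase, an enzyme that attaches a fatty acid to cysteines of other proteins and so changes where they sit in the cell. Beta-catenin, encoded by CTNNB1, is the co-activator of WNT signalling: without a WNT ligand it is phosphorylated in a destruction complex and degraded by the proteasome, and with one it enters the nucleus and binds TCF and LEF factors. Cisplatin forms crosslinks between bases of DNA that stop polymerases, which calls up DNA damage signalling, and in cycling cells it blocks replication and division. The series title connects these by naming palmitoylation of beta-catenin by ZDHHC8 as a route to cisplatin resistance, so the state of interest is that of cells with less ZDHHC8 under the drug.

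The table listed 21123 genes without naming the unit of its values. They were read as FPKM, a measure per length of transcript, from their range and unequal totals. Of these genes 13495 were tested, those with at least 1 FPKM in at least 2 libraries. Read depth cannot be had from these values, so precision comes from the spread between replicates. Column totals were 369660 and 364719 in shControl vehicle and 391016 and 387781 in shZDHHC8 cisplatin, and Pearson's r of log2 values was 0.9948 to 0.9957 within groups and 0.9391 to 0.9402 between the libraries compared. Mesenchymal VIM was at 1194 to 2110 FPKM over the 8 libraries and the osteoblast factor RUNX2 at 8.9996 to 14.1. Of further bone markers SPP1 was at 56.5 to 275 and SPARC at 3.71 to 11.2. BGLAP, IBSP, PHEX, PDPN and COL1A2 stayed below 1 FPKM. Of 19 osteoblast lineage markers 14 were listed and 9 reached 1 FPKM. Epithelial keratins were abundant in the untreated control, KRT8 at 653 and 644 FPKM, KRT7 at 363 and 360 and KRT18 at 167 and 168. The receptor gene ERBB2 was at 1193 and 1217 FPKM there. The identity of the line is therefore read from its label. A change is given as the difference of mean log2(FPKM + 1), treated knockdown minus untreated control, from limma, with Benjamini-Hochberg adjustment over all tested genes and a threshold of 0.05. That scale understates the change of low genes. Where a pair of values is set against another, the first pair is the untreated control and the second the treated knockdown, in FPKM.

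The difference between the groups was broad. At an adjusted p below 0.05, 6114 genes were higher, 45.3% of those tested, and 3292 were lower, 24.4%, so that 69.7% passed in either direction. With a change of at least 1 on the log2 scale, 649 genes were higher (4.81%) and 524 lower (3.88%), 8.69% in all. The median change of all tested genes was 0.16. It became 0.085 when libraries were scaled to a common total, with 5310 genes higher and 3802 lower, and 0.022 under median-of-ratios scaling, with 4594 higher and 4321 lower. Counts of list members below are therefore read against 45.3% and 24.4%, and medians against 0.16. Where such counts are repeated under median-of-ratios scaling, those higher come first and those lower second. Such repeated counts are read against the 4594 higher and 4321 lower of all genes under that scaling.

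**Figure D1:**
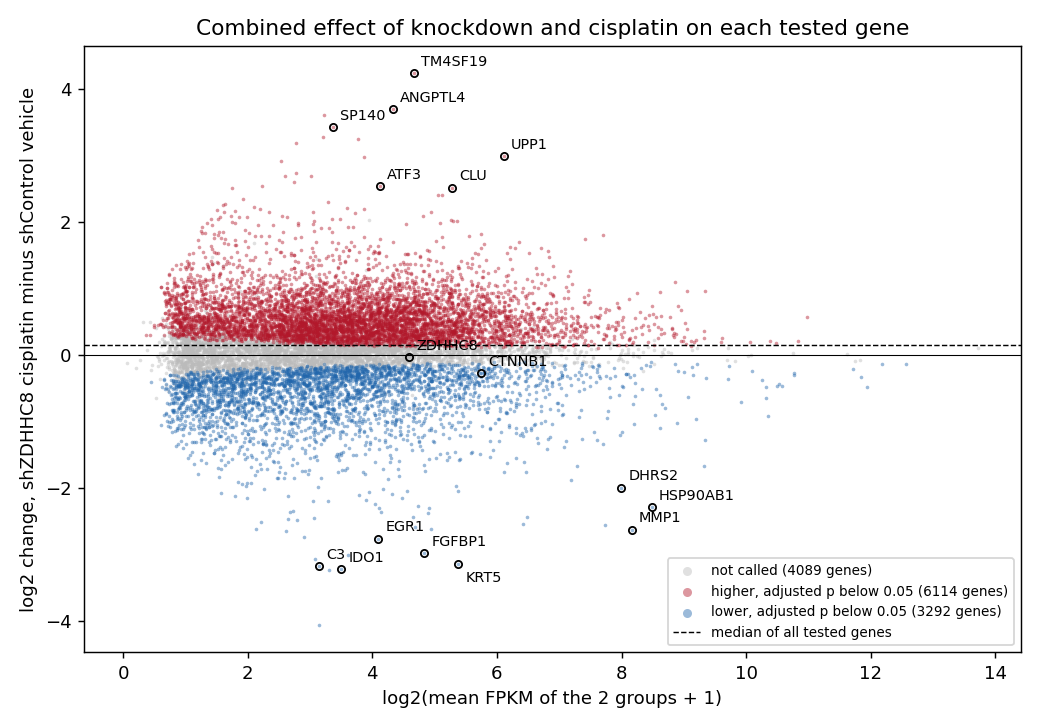
Each point is a tested gene, with log2(mean FPKM of both groups + 1) on the horizontal axis and the log2 change of shZDHHC8 cisplatin over shControl vehicle on the vertical axis. Red points (6114) and blue points (3292) passed the adjusted p of 0.05, the dashed line is the median of all tested genes at 0.16, and ZDHHC8 lies near 0 while TM4SF19 and KRT5 lie at 4.23 and -3.14.

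The targeted gene itself did not separate these groups. ZDHHC8 (ENSG00000099904, chr22:20129456-20148007 on hg38) was at 23.7 and 23.1 FPKM in the shControl vehicle libraries and at 23.5 and 22.3 in the shZDHHC8 cisplatin libraries. The ranges overlapped, and the difference in log2 units was -0.03 ± 0.13 (SE), with an adjusted p of 0.84 from limma and a 95% interval from -0.33 to 0.27. With cisplatin alone the level was 32.6 ± 0.370 FPKM (mean ± SD, n = 2 libraries, as for all such values), and with the knockdown alone it was 12.1 ± 3.19, so the 4 groups ran from the knockdown alone, through the pair compared here, to cisplatin alone. Without the second shZDHHC8 cisplatin library the sign turned, at 0.0036 (limma adjusted p = 0.987). Within each treatment the mean was lower in shZDHHC8 cells. With vehicle it was 12.1 ± 3.19 against 23.7 and 23.1 in shControl, and with cisplatin 23.5 and 22.3 against 32.6 ± 0.370. In the comparison made here the level of ZDHHC8 mRNA was not detectably different, so there the knockdown is read from its label.

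CTNNB1 was modestly lower. CTNNB1 (ENSG00000168036, chr3:41194741-41260096) was at 57.8 and 57.9 FPKM in the untreated control and 46.4 and 49.4 in the treated knockdown, with no overlap, a change of -0.27 ± 0.048 (SE) in log2 units and an adjusted p of 0.001 from limma. Its level was 41.3 ± 0.158 with cisplatin alone and 52.7 ± 1.44 with the knockdown alone. RNA says nothing of palmitoylation or of the amount or place of the protein.

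The 12 largest rises ranged from 2.52 to 4.23 in log2 units. TM4SF19 (ENSG00000145107, chr3:196319342-196338503), a protein with 4 membrane spans, went from 1.62 and 1.51 FPKM in the untreated control to 47.8 and 46.7 in the treated knockdown, a change of 4.23 ± 0.063 (SE) in log2 units (limma, adjusted p = 6.71e-09). ANGPTL4 (ENSG00000167772, chr19:8363289-8374370), a secreted inhibitor of lipoprotein lipase, went from 1.91 and 1.84 to 38.1 and 34.4, and SP140, a chromatin reader best known from immune cells, from 0.730 and 0.774 to 17.3 and 18.5. In these genes both treated knockdown libraries lay far above both controls and the replicates lay close together. UPP1 (ENSG00000183696, chr7:48088628-48108736), the uridine phosphorylase that recycles pyrimidines, was the most abundant of the 12 genes named by size, at 14.3 and 14.5 FPKM against 121 and 122.

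Several of these genes stood at intermediate levels in both single perturbations. UPP1 was at 67.5 ± 7.04 with cisplatin alone and 57.4 ± 2.39 with the knockdown alone, below the treated knockdown in each. CCL26, a chemokine that attracts eosinophils, went from 0.822 and 0.640 FPKM to 15.1 and 16.5, while it was at 2.90 ± 0.0487 with cisplatin alone and 3.99 ± 0.453 with the knockdown alone. IL1B, the cytokine interleukin-1 beta, went from 0.846 and 0.943 to 10.6 and 10.4, and 6.89 ± 0.628 with cisplatin alone and 5.92 ± 0.249 with the knockdown alone. AOX1, an aldehyde oxidase, went from 1.15 and 1.18 to 13.7 and 12.2. CLU, the secreted chaperone clusterin, went from 12.03 and 9.29 to 66.3 and 64.4, and it was at 21.0 ± 1.90 with cisplatin alone and 35.0 ± 5.31 with the knockdown alone. In CCL26, IL1B, AOX1 and CLU the compared groups did not overlap. Exons of TM4SF19, EVI2B, CLU, SH3BGR and RNASET2 overlap another annotated gene on the same strand, so part of their values may belong to it.

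The rest of the 12 leaned to one of the perturbations. ATF3, a transcription factor induced by stress, was at 4.06 and 4.14 FPKM against 28.4 and 29.1, and its level was 23.7 ± 0.202 with cisplatin alone and 5.46 ± 0.0141 with the knockdown alone, so the treated cells of either line were high and the untreated ones low. MILR1, an immunoglobulin-like receptor known from mast cells, was at 2.24 and 2.30 FPKM against 25.5 and 24.1, and 2.44 ± 0.0202 with cisplatin alone and 21.1 ± 1.56 with the knockdown alone. GPNMB, a glycoprotein of lysosomes and melanosomes, went from 0.558 and 0.694 FPKM to 9.93 and 9.15, and EVI2B, a membrane protein encoded in an intron of NF1, from 0.398 and 0.365 to 7.68 and 6.38. For MILR1, GPNMB and EVI2B both shZDHHC8 groups were high and both shControl groups low.

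SP140, MILR1 and EVI2B are known mainly from leukocytes, so markers of that lineage were read beside them. Of 10 leukocyte markers in the table, CD68 alone reached 1 FPKM. The summed level of the 10 was 14.8 to 16.6 FPKM in the untreated control and 61.6 to 70.6 in the treated knockdown, nearly all of it from CD68, which encodes a lysosomal glycoprotein and went from 14.5 and 15.98 to 68.7 and 60.3 FPKM. PTPRC, the pan-leukocyte marker, stayed at 0.0238 to 0.14 FPKM over all 8 libraries and CD3E was at 0. The part of such cells in these results was not tested.

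**Figure D2:**
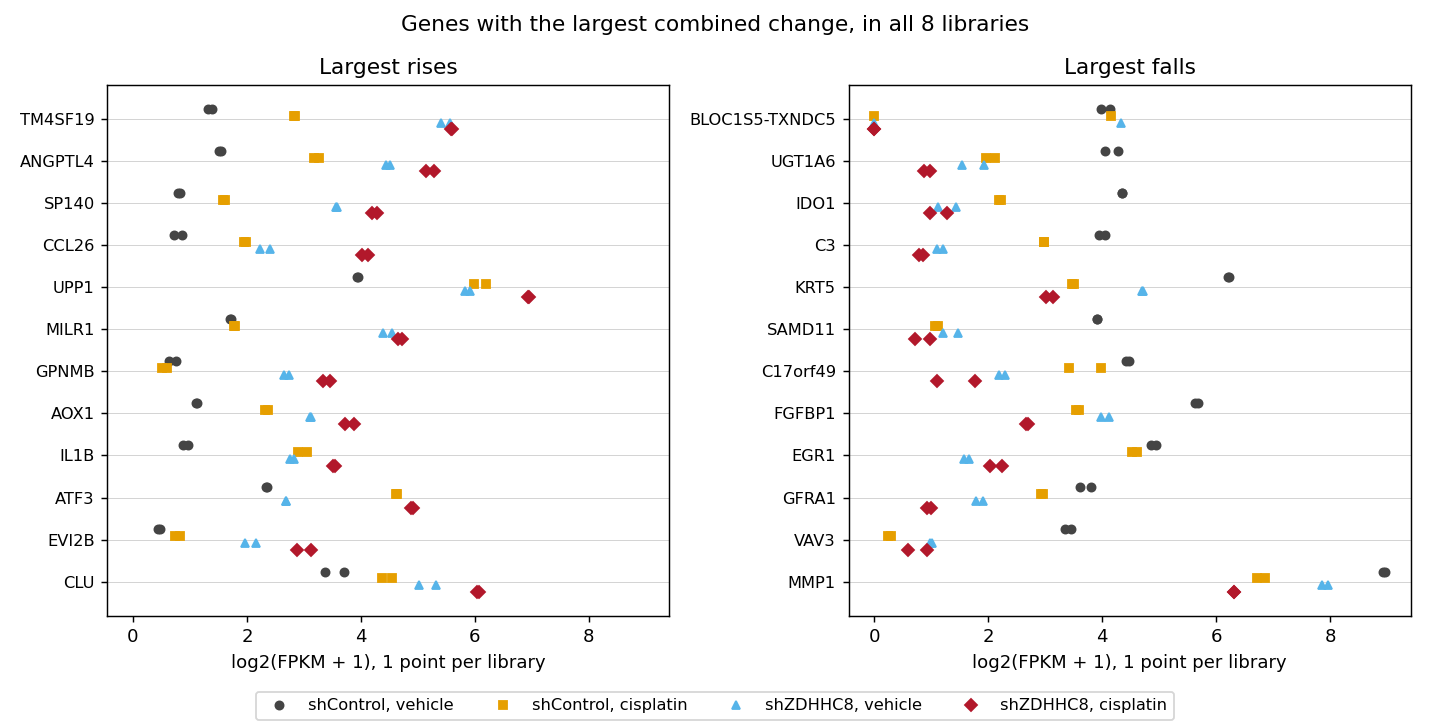
Log2(FPKM + 1) of the 12 largest rises (left) and 12 largest falls (right) among protein-coding genes, with 1 point per library and a colour and marker for each of the 4 groups. The shZDHHC8 cisplatin libraries (red diamonds) lie to the right of the shControl vehicle libraries (black circles) in every gene on the left and to the left of them in every gene on the right.

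The 12 largest falls included KRT5, MMP1, C3 and EGR1. KRT5 (ENSG00000186081, chr12:52514575-52520530), the keratin of basal epithelium, went from 74.0 and 73.0 FPKM to 7.13 and 7.83, a change of -3.14 ± 0.056 (SE) in log2 units (limma, adjusted p = 9.73e-09). MMP1 (ENSG00000196611, chr11:102789919-102798160), an interstitial collagenase, was the most abundant of the 12 falls, at 498 and 485 FPKM against 78.7 and 78.9, and FGFBP1, a carrier that releases fibroblast growth factors, was at 50.4 and 48.6 FPKM against 5.46 and 5.33. MMP1 stood at 109.8 ± 7.28 with cisplatin alone and 239.9 ± 13.2 with the knockdown alone, and FGFBP1 at 10.9 ± 0.381 with cisplatin alone and 15.6 ± 1.19 with the knockdown alone. In both genes the treated knockdown was below each single perturbation.

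Other large falls ended at low levels. C3 (ENSG00000125730, chr19:6677704-6730562), the central complement component, went from 15.5 and 14.4 FPKM to 0.801 and 0.718. IDO1, which degrades tryptophan, went from 19.4 and 19.4 to 0.971 and 1.42, and its level was already 3.65 ± 0.0742 with cisplatin alone and 1.44 ± 0.367 with the knockdown alone. EGR1 (ENSG00000120738, chr5:138465479-138469303), an immediate-early transcription factor, went from 28.1 and 29.7 to 3.09 and 3.73, and here cisplatin alone left it at 22.7 ± 0.961 while the knockdown alone had 2.06 ± 0.128. GFRA1, the receptor subunit for GDNF, went from 11.3 and 12.9 to 0.999 and 0.899. VAV3, a guanine nucleotide exchange factor, went from 9.97 and 9.25 to 0.898 and 0.502, and SAMD11 from 14.1 and 14.1 to 0.979 and 0.648. VAV3 was lowest with cisplatin alone, at 0.208 ± 0.0272 FPKM.

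A further 3 of the 12 falls rest on uncertain counting. BLOC1S5-TXNDC5, a readthrough of neighbouring genes whose exons overlap 3 annotated genes on its strand, was at 14.8 and 16.6 FPKM in the untreated control and listed at 0 in both treated knockdown libraries and in a single library of each other perturbed group, and its call ended when any of the 4 compared libraries was left out. UGT1A6, a glucuronosyltransferase whose exons overlap 8 annotated genes on its strand, was at 15.6 and 18.3 FPKM against 0.843 and 0.965. C17orf49 was at 21.2 and 20.4 FPKM against 1.15 and 2.42, with exon overlaps of 2 genes on each strand.

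Some genes moved beyond every other group. Of the 13495 genes tested, 1312 were higher in the treated knockdown than in each of the 3 other groups and 554 were lower. Each of the 3 changes was called, with the same direction in all pairs of libraries and at least 5 FPKM in the higher group. These counts are for values as deposited and were not repeated under the other scalings. Column totals were largest in the treated knockdown, at 391016 and 387781. Under median-of-ratios scaling the 6114 higher and 3292 lower of all genes became 4594 and 4321. The part of scaling in the excess of 1312 over 554 was not tested. CCL26, described above, was the gene farthest above all other groups. MRPS23 (ENSG00000181610, chr17:57834781-57850056), a protein of the small mitochondrial ribosomal subunit, was at 8.34 and 8.51 FPKM against 38.0 and 34.0, and 13.1 ± 0.714 with cisplatin alone and 11.9 ± 0.708 with the knockdown alone. AFP, alpha-fetoprotein, went from 0.191 and 0.289 to 4.91 and 5.73, with 2.08 ± 0.401 for the knockdown alone. H2BC11, a histone H2B gene, was at 1.98 and 1.56 FPKM against 4.55 and 5.62 and SH3BGR at 1.09 and 1.4996 FPKM against 5.68 and 5.08. For H2BC11 and SH3BGR neither single perturbation passed against the untreated control. NME1-NME2, a readthrough of a pair of nucleoside diphosphate kinase genes, was at 37.4 and 37.7 FPKM against 124 and 126, and its reads cannot be told apart from those of either gene.

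The genes farthest below all other groups included matrix, adhesion and WNT genes. HSPG2 (ENSG00000142798, chr1:21822244-21937310), the basement membrane proteoglycan perlecan, was at 40.99 and 41.6 FPKM against 6.93 and 6.73, and 21.3 ± 1.07 with cisplatin alone and 20.8 ± 3.74 with the knockdown alone. SULF2, a sulfatase that trims heparan sulfate on such proteoglycans, was at 30.4 and 34.3 FPKM against 9.01 and 7.97. PTPRM, a receptor tyrosine phosphatase at cell contacts, was at 23.2 and 23.8 FPKM against 4.51 and 4.29. These 3 fell in each single perturbation and lay lowest under both. DHRS2, a short-chain dehydrogenase, fell from 395 and 419 to 97.9 and 105. RNASET2, a lysosomal ribonuclease, went from 16.1 and 20.1 to 7.61 and 7.42 although the single perturbations held it at 18.9 ± 2.37 and 24.6 ± 0.628.

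WNT components leaned downward, and WNT targets were divided, with a median below that of all genes. Of 51 listed WNT components 41 were tested, of which 21 fell and 7 rose, with a median change of -0.25 (-0.40 under median-of-ratios scaling). The medians of the single perturbations were -0.07 for cisplatin alone and -0.13 for the knockdown alone. By role, ligands and their handling came first. WNT10A, a ligand, went from 10.4 and 11.1 FPKM to 1.19 and 1.0006, and WNT7B from 36.7 and 36.7 to 18.2 and 17.8. PORCN, the acyltransferase that lipidates WNT ligands for secretion, went from 50.3 and 53.2 to 21.3 and 21.1, and 56.2 ± 0.168 with cisplatin alone and 23.2 ± 2.03 with the knockdown alone. WLS, which carries WNT ligands to the surface, rose, from 6.09 and 5.81 to 10.7 and 11.4.

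Receptors followed the same direction in most of the members that passed. LRP5 (ENSG00000162337, chr11:68312591-68449275), a co-receptor, was at 8.15 and 8.72 FPKM against 1.73 and 1.51, a change of -1.85 ± 0.081 (SE) in log2 units (limma, adjusted p = 3.27e-07), and it was at 6.44 ± 0.0747 with cisplatin alone and 4.48 ± 0.378 with the knockdown alone, lowest where both were joined. LRP6, its paralog, stood at 4.22 and 4.42 FPKM against 4.16 and 4.25 and did not pass (adjusted p = 0.687, limma). FZD2, a frizzled receptor, fell from 37.2 and 37.3 to 14.4 and 14.5. FZD6 and FZD7, with 22.2 ± 0.826 and 8.22 ± 0.0614 FPKM in the untreated control, had changes of -0.09 and 0.02 that did not pass. LGR4, the R-spondin receptor, went from 15.9 and 16.7 to 10.1 and 10.9.

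Antagonists were split. SFRP1, a secreted decoy for WNT ligands, fell from 9.61 and 9.37 to 2.47 and 2.32, and KREMEN1, a receptor for DKK proteins, from 4.74 and 5.03 to 1.06 and 0.992. DKK1, which blocks LRP co-receptors, rose from 40.2 and 36.7 to 74.3 and 74.7, and 105 ± 0.844 with cisplatin alone and 31.7 ± 1.62 with the knockdown alone. Inside the cell, the destruction complex genes APC and AXIN1 rose by 0.29 and 0.31 and the kinase genes GSK3A and GSK3B fell by 0.25 and 0.33. Among the nuclear partners of beta-catenin, TCF7L1 went from 7.93 and 7.59 to 3.15 and 2.801 and TCF7L2 from 10.6 and 11.1 to 6.44 and 6.57, and BCL9, BCL9L and PYGO2 fell by 0.54, 0.26 and 0.62. LEF1 was at most 0.0531 FPKM in any library.

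Targets of the pathway did not move as a block. Of 47 listed targets 27 were tested, with 10 higher (37.0%) and 8 lower (29.6%), against 45.3% and 24.4% of all genes. Their median was 0.02, against 0.16 for all genes. It turned to -0.06 and -0.12 under the common total and median-of-ratios scaling, where that of all genes was 0.085 and 0.022. MMP7, a matrix protease, fell from 7.84 and 6.96 to 1.53 and 2.0005, and L1CAM, an adhesion molecule, from 88.2 and 88.0 to 32.4 and 31.7. FGF18 fell from 15.7 and 15.4 to 4.68 and 5.24 and the ephrin receptor EPHB2 from 20.6 and 22.5 to 7.14 and 7.80, to levels below those of either single perturbation. FOSL1, an AP-1 subunit, rose from 58.8 and 59.0 to 144 and 132, and SOX9 from 0.377 and 0.503 to 2.12 and 2.03. CCND1, cyclin D1, rose from 46.7 and 47.7 to 75.8 and 75.2, and MYC from 33.7 and 33.2 to 44.97 and 42.0, both below their levels of 107 ± 1.17 and 80.2 ± 4.75 with cisplatin alone. AXIN2, NKD1, NOTUM and SP5, feedback genes often used to read the pathway, stayed below 1 FPKM in every library and were not tested.

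Palmitoylation enzymes were also divided. Of 31 tested members 14 rose (45.2%) and 10 fell (32.3%), against 45.3% and 24.4% of all genes. Their median was 0.12 (-0.03 under median-of-ratios scaling, with 9 and 10). Among the transferases, ZDHHC18 fell from 13.3 and 13.1 to 5.42 and 5.75 and ZDHHC7 from 33.1 and 32.5 to 18.5 and 20.1, whereas ZDHHC6 rose from 17.1 and 17.0 to 29.6 and 30.1. ZDHHC5, the closest relative of ZDHHC8, was at 31.9 and 32.9 FPKM against 34.4 and 33.0 and did not pass (adjusted p = 0.365, limma). HHAT, which acylates hedgehog ligands, fell from 2.61 and 2.53 to 0.827 and 0.766. GOLGA7, a partner of ZDHHC9 in a Ras palmitoyltransferase, rose from 23.9 and 23.9 to 45.8 and 40.5. Of the enzymes that remove the lipid, LYPLA2 rose from 38.5 and 37.7 to 66.6 and 62.4 and ABHD17C fell from 5.80 and 4.72 to 2.43 and 2.22.

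**Figure D3:**
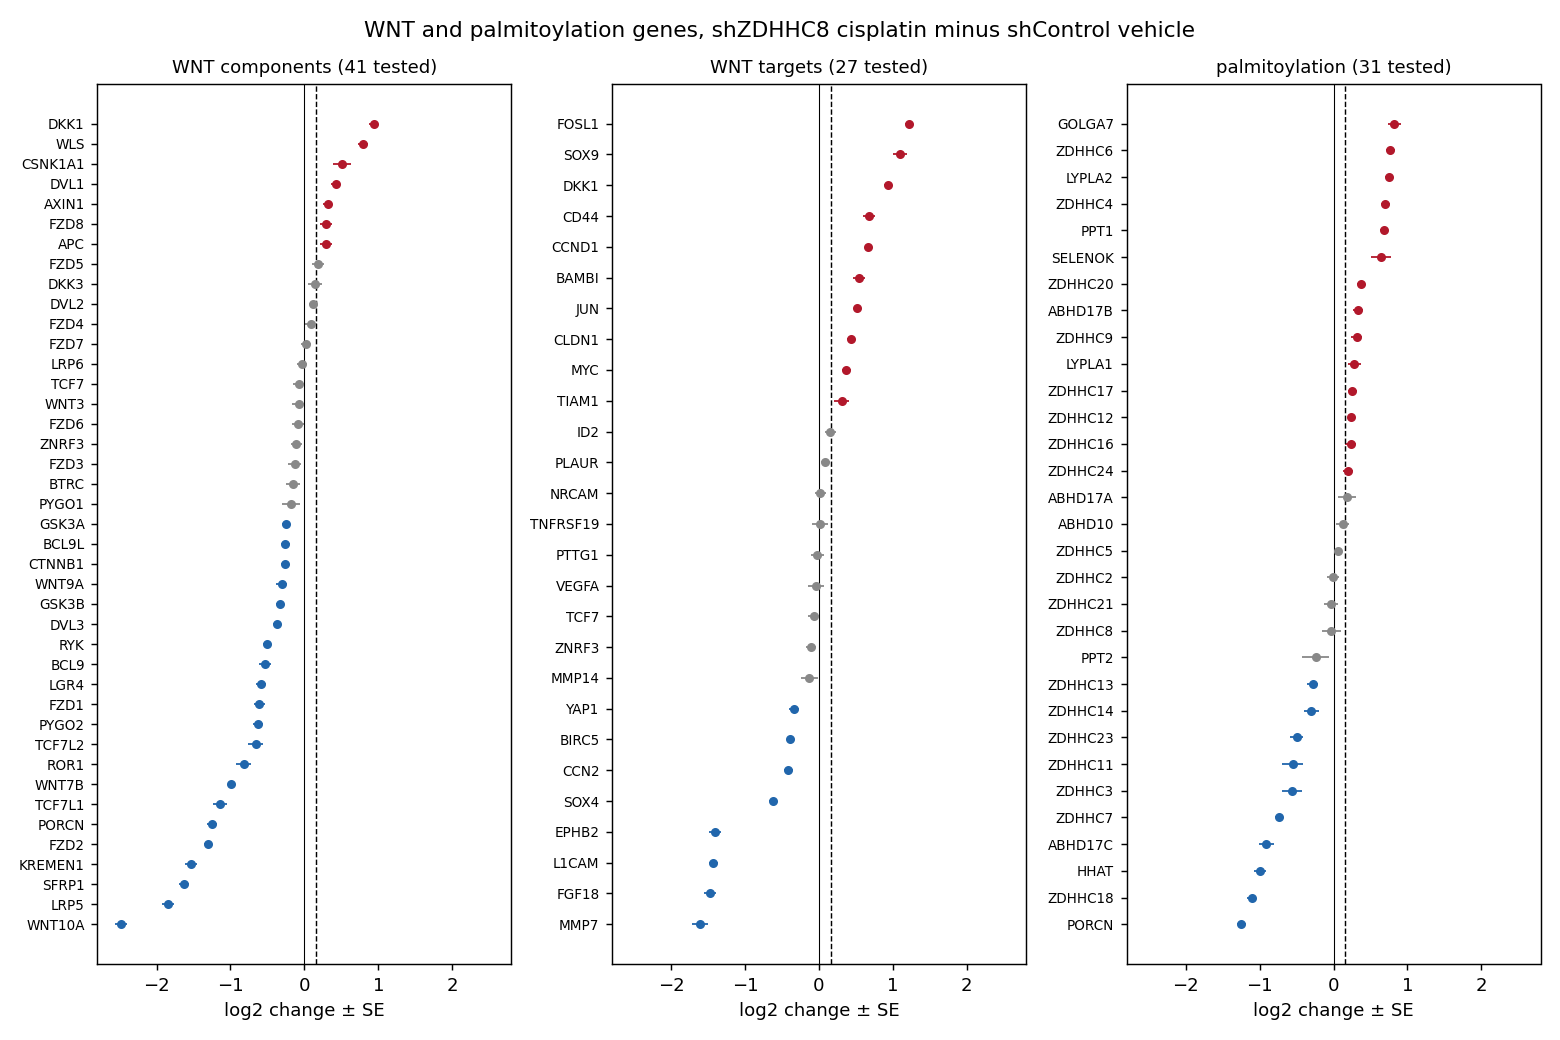
Log2 change ± SE of every tested WNT component (41), WNT target (27) and palmitoylation gene (31), shZDHHC8 cisplatin minus shControl vehicle, with red for higher, blue for lower and grey for not passing an adjusted p of 0.05, and the median of all genes dashed. WNT components lean to the left of the dashed line, from WNT10A at -2.49 to DKK1 at 0.94, and the other panels spread to both sides.

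Most p53 targets rose. Of 32 tested p53 targets 20 rose and 4 fell, with a median of 0.37 (0.24 under median-of-ratios scaling). GADD45A (ENSG00000116717, chr1:67685201-67688334), a growth arrest gene, was at 91.3 and 92.6 FPKM against 325 and 323, while cisplatin alone had 797 ± 12.5 and the knockdown alone 105 ± 2.28. PMAIP1, the BH3-only killer protein NOXA, was at 24.5 and 26.6 FPKM against 81.2 and 85.5, above 47.5 ± 0.964 with cisplatin alone and 42.9 ± 0.668 with the knockdown alone. SESN2, a stress sensor that restrains mTORC1, went from 7.20 and 6.84 to 26.1 and 25.5, and AEN, a nuclease of apoptosis, from 4.41 and 3.98 to 15.7 and 15.8. CDKN1A, the cell cycle inhibitor p21, went from 4.03 and 4.06 to 9.96 and 10.5, below 15.9 ± 0.373 with cisplatin alone. MDM2, the ubiquitin ligase of p53, was at 3.98 and 4.75 FPKM against 3.98 and 3.94 and did not pass (adjusted p = 0.32, limma). Among the members that fell were DDB2, a damage sensor, at 11.1 and 9.98 FPKM against 5.82 and 5.71, and TRIM22, an antiviral ubiquitin ligase, at 3.19 and 2.78 FPKM against 0.781 and 0.737.

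Repair genes moved little as lists. In crosslink and homologous recombination repair 24 of 44 rose and 4 fell, with a median of 0.23 (0.09 under median-of-ratios scaling, with 17 and 9). XRCC3, a recombination repair protein, was at 9.18 and 8.72 FPKM against 19.8 and 19.9, the damage kinase ATR at 5.62 and 6.26 FPKM against 9.84 and 10.6 and BRCA2, a mediator of recombination, at 2.71 and 2.72 FPKM against 4.75 and 4.89. Their means were higher with cisplatin alone, at 27.6 ± 3.76, 10.9 ± 0.283 and 6.47 ± 0.288. In nucleotide excision repair 15 of 33 rose (45.5%) and 5 fell (15.2%), against 45.3% and 24.4% of all genes, with a median of 0.20. RPA2, a subunit of the single-strand binding complex, went from 23.5 and 22.9 to 58.9 and 58.8, and GTF2H1, a subunit of TFIIH, from 18.6 and 18.6 to 41.4 and 42.8, both above either single perturbation. LIG1, a DNA ligase, fell from 25.96 and 25.7 to 14.2 and 13.9.

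Cell death genes changed on both sides of the balance. Of 29 tested members of the BCL2 and caspase list 16 rose (55.2%) and 8 fell (27.6%), against 45.3% and 24.4% of all genes. Under median-of-ratios scaling 14 rose and 10 fell. Of its BH3-only killer genes PMAIP1, BBC3, BIK, BMF, HRK and BCL2L11 rose, and BID and BAD, at changes of -0.12 and 0.08, did not pass. BBC3 (PUMA) went from 1.16 and 1.77 to 3.72 and 3.78, BIK from 0.958 and 0.956 to 5.62 and 5.86 and BMF from 2.66 and 2.61 to 5.22 and 5.49. The initiator caspase gene CASP8 rose from 17.9 and 19.0 to 27.6 and 27.2. The survival gene BCL2L1 fell by 0.23 and MCL1 rose by 0.24, from 75.4 and 78.1 to 89.4 and 92.1. BOK, a BCL2 relative of the pore-forming kind, fell from 23.0 and 25.3 to 14.5 and 12.8.

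Mitosis genes fell almost throughout. Of 42 tested 34 fell, against a background of 24.4%, and 2 rose (KIF2C and MAD2L1), with a median of -0.49 (-0.63 under median-of-ratios scaling, -0.22 with cisplatin alone and -0.42 with the knockdown alone). KIF20A, a kinesin of cytokinesis, was at 35.0 and 35.3 FPKM against 11.9 and 13.0. PLK1 (ENSG00000166851, chr16:23677656-23690367), the kinase that drives mitotic entry, was at 58.9 and 60.3 FPKM against 28.1 and 26.4, a change of -1.10 ± 0.05 (SE) in log2 units (limma, adjusted p = 4.04e-07). MKI67, the proliferation marker Ki-67, was at 45.01 and 48.4 FPKM against 21.8 and 21.1 and KIF4A, a chromosome kinesin, at 17.1 and 16.9 FPKM against 6.77 and 6.26. In all 4 genes the groups were apart. PLK1 and KIF20A had similar means with cisplatin alone (26.8 ± 0.673 and 12.01 ± 0.374), and KIF4A and MKI67 were nearer their level with the knockdown alone (7.20 ± 0.294 and 24.3 ± 0.490). Under median-of-ratios scaling 37 of the 42 fell and none rose. In bulk RNA, fewer dividing cells and less mitotic RNA per cell cannot be told apart.

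The promoters of these genes share short elements. Windows of 300 bases, 250 before to 50 after the gene start, were taken from RefSeq (GRCh38.p14), and 35 of the 42 genes had an entry. The cell cycle homology region, TTTGAA on either strand, occurred in 25 of the 35 windows (71.4%), against 9.34% of the 9962 tested genes with an entry, and the NF-Y box, CCAAT on either strand, in 27 (77.1%, against 37.0%). Of the 25 members with TTTGAA 22 fell, and of the 10 without it 6 fell. The 250 bases before the start are shown for the 3 genes named above that hold both elements close to the start, PLK1 (chr16:23678639-23678888, plus strand), MKI67 (chr10:128126424-128126673, minus strand) and KIF4A (chrX:70289854-70290103, plus strand), each 5′ to 3′ on the gene's strand and before the RefSeq start, which for PLK1 lies inside the span given above from GENCODE, with every match to either element in capitals. In MKI67 the element nearest the start and the NF-Y box beside it share a base.
PLK1: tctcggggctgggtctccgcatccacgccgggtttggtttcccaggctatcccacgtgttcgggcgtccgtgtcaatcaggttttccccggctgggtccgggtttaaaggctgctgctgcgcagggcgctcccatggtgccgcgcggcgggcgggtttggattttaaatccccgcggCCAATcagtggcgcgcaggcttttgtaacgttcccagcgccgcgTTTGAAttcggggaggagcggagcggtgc
MKI67: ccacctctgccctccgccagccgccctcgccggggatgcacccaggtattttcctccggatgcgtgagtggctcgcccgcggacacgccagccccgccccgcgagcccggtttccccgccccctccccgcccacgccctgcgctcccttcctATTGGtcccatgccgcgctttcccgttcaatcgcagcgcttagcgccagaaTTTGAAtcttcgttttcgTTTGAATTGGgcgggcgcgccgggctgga
KIF4A: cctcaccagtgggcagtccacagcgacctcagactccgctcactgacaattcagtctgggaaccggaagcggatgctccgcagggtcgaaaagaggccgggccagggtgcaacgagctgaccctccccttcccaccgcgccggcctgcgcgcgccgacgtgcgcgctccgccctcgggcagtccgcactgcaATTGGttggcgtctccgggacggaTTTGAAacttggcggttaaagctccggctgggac

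DNA replication genes were divided. Of 39 tested 17 rose and 14 fell, with a median of 0.07 that turned to -0.08, with 11 and 17, under median-of-ratios scaling. E2F7, a repressor of the E2F family, went from 9.81 and 9.62 to 44.97 and 44.7, above 31.1 ± 0.415 and 26.5 ± 0.981 in the single perturbations. The licensing genes ORC6 and CDC6 went from 15.7 and 15.7 to 33.2 and 35.6 and from 21.2 and 21.9 to 46.6 and 44.98. The thymidylate synthase gene TYMS fell from 97.2 and 100.1 to 57.5 and 58.3 and the thymidine kinase gene TK1 from 102 and 99.7 to 62.5 and 58.0. MCM6, a helicase subunit, fell from 23.9 and 24.4 to 12.2 and 10.8.

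Inflammatory genes went in opposite directions. Of 25 tested members of the NF-kB and cytokine list 10 rose and 10 fell, with a median near 0 (-0.08 and -0.15 after common-total and median-of-ratios scaling), with 7 and 10 under the latter, while the medians were 1.39 for cisplatin alone and -0.86 for the knockdown alone. CXCL1 (ENSG00000163739, chr4:73869393-73871308), a chemokine for neutrophils, was at 146 and 144 FPKM against 23.6 and 24.7, a change of -2.54 ± 0.045 (SE) in log2 units (limma, adjusted p = 9.73e-09), and 256 ± 8.41 with cisplatin alone and 33.8 ± 0.0660 with the knockdown alone. IL6 (ENSG00000136244, chr7:22725884-22732002), the cytokine interleukin-6, was at 15.7 and 15.6 FPKM against 7.22 and 7.76, and 97.5 ± 1.94 with cisplatin alone and 1.88 ± 0.335 with the knockdown alone. CXCL1 was lowest in the treated knockdown, and IL6 lay between the untreated control and the knockdown alone.

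Other members of that list were also divided. IL1A, interleukin-1 alpha, rose from 10.5 and 9.99 to 48.7 and 49.6, higher than in either single perturbation (33.2 ± 1.77 and 34.4 ± 1.22). CXCL8, the chemokine interleukin-8, rose from 32.1 and 33.9 to 53.8 and 48.0, against 233 ± 13.5 with cisplatin alone. Feedback inhibitors of NF-kB differed: NFKBIA fell from 42.0 and 47.2 to 25.5 and 21.6 and TNFAIP3 rose from 10.2 and 10.99 to 13.3 and 12.4. RELB and NFKB2, subunits of the non-canonical arm, were at 9.46 and 9.71 FPKM against 10.1 and 8.18 and at 20.5 and 21.0 FPKM against 23.1 and 22.7, and neither passed.

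A kappaB element, GGG followed by any 2 bases and TTTCC on either strand, was found in 10 of the 20 windows of list members with a RefSeq entry (50%, against 2.13% of the windows of tested genes). Of the 10 members with it 7 fell and 2 rose, with a median of -0.85, and of the 10 without it 2 fell and 6 rose, with a median of 0.46. The 250 bases before the start of CXCL1 (chr4:73869143-73869392, plus strand) and IL6 (chr7:22726950-22727199, plus strand), the members of the list with the smallest adjusted p among those that fell, are shown with the element in capitals, and the RefSeq start of IL6 lies inside its GENCODE span given above. A match describes the letters of the window and not whether a factor sits there.
CXCL1: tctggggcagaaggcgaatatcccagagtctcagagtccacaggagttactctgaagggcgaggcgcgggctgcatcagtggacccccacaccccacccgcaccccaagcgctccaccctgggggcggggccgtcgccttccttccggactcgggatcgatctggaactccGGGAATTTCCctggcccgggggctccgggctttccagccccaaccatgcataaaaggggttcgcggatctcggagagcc
IL6: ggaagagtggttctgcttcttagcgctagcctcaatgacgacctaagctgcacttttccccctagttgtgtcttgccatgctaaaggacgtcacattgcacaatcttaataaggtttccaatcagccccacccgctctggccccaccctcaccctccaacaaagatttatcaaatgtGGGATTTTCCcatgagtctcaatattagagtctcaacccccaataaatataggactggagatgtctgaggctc

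Interferon-stimulated genes were divided, with 13 of 34 higher, 9 lower and a median of 0.03 (-0.07 under median-of-ratios scaling, with 12 and 12). The membrane restriction factors fell together: IFITM3 went from 400.0 and 386 to 189 and 195, IFITM2 from 98.4 and 97.3 to 46.8 and 46.6 and IFITM1 from 10.4 and 11.2 to 3.62 and 4.25, and these near-identical genes may share reads. IFI27 rose from 13.1 and 11.4 to 27.1 and 30.5 and IFI35 from 18.9 and 15.1 to 33.9 and 33.6. IRF9, the DNA-binding subunit of the interferon response complex, rose from 3.06 and 1.74 to 4.25 and 4.38.

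Early response and MAP kinase pathway genes moved in both directions. Of 26 FOS, JUN and early response genes 15 rose and 7 fell, or 11 and 8 under median-of-ratios scaling. Beside ATF3 and EGR1, HBEGF, a ligand of the EGF receptor, rose from 2.9958 and 3.63 to 19.2 and 18.6, while FOS fell from 48.7 and 59.2 to 15.9 and 18.8 and JUNB from 127 and 127 to 59.7 and 55.8. JUN rose from 75.1 and 75.3 to 107 and 107. In a list of 21 MAP kinase genes, made of feedback inhibitors and of genes the pathway induces, 14 rose and 3 fell, with a median of 0.30, or 10 and 3 and 0.18 under median-of-ratios scaling. Among the rises were ETV4 and ETV5, transcription factors that the pathway induces, and the falls were the Sprouty gene SPRY1 and the ephrin receptor genes EPHA2 and EPHA4. The phosphatase gene DUSP5 went from 10.3 and 9.63 to 57.2 and 57.6, DUSP4 from 7.26 and 7.31 to 22.9 and 23.9 and the Sprouty gene SPRY4 from 3.17 and 2.95 to 11.6 and 11.2. DUSP1 rose from 44.0 and 46.0 to 86.5 and 87.2, with 134 ± 1.54 for cisplatin alone. In a list of 11 EGF family genes, other receptor kinases and their inhibitors, 5 rose and 5 fell. The receptor gene EGFR was at 36.1 and 37.4 FPKM against 19.1 and 19.6, and AXL, a receptor kinase outside that family, at 129.8 and 129.6 FPKM against 42.8 and 40.8, both lower.

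The integrated stress response rose, with 25 of 34 members higher, 5 lower and a median of 0.61 (0.46 under median-of-ratios scaling, 0.49 for cisplatin alone and 0.48 for the knockdown alone). ATF4, its central transcription factor, rose from 124 and 119.9 to 218 and 241. PPP1R15A, the phosphatase subunit that restores translation, went from 34.8 and 36.6 to 106 and 105, against 215 ± 9.40 with cisplatin alone, and TRIB3, a pseudokinase, from 25.3 and 24.3 to 72.2 and 67.5, against 105 ± 1.28. DDIT3, the factor CHOP, rose from 24.6 and 23.7 to 47.7 and 51.5 and ASNS, asparagine synthetase, from 12.8 and 14.96 to 21.6 and 21.4. PPP1R15A, TRIB3 and DDIT3 thus lay between the untreated control and cisplatin alone. SHMT2, a mitochondrial enzyme of serine breakdown, fell from 83.9 and 83.4 to 52.4 and 52.2.

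Genes of the translation apparatus also rose. Cytosolic tRNA synthetases had 18 of 20 higher and 1 lower, EPRS1, with a median of 0.55. WARS1, which charges tryptophan, went from 62.7 and 58.2 to 113 and 112, FARSA, a phenylalanine synthetase subunit, from 51.1 and 52.0 to 97.8 and 90.4, and SARS1, for serine, from 133 and 127 to 221 and 223. An ATF4 element, TGATGNAA on either strand, was in 6 of 16 of their promoter windows (37.5%, against 1.68%), and all 6 of those members rose, as did 9 of the 10 without it. Ribosome biogenesis genes had 26 of 33 higher, 4 lower and a median of 0.60, with RRN3, an initiation factor of RNA polymerase I, at 14.0 and 14.3 FPKM against 48.0 and 49.2, the helicase DDX21 at 35.8 and 37.0 FPKM against 92.0 and 91.5 and the nucleolar protein NOP16 at 12.4 and 11.8 FPKM against 32.6 and 33.1. Cytosolic ribosomal protein genes had 45 of 78 higher and 5 lower, but 27 and 13 under median-of-ratios scaling, where the median went from 0.23 to 0.08. RPL9 rose from 165 and 166 to 246 and 271 and RPS15 fell from 461 and 419.9 to 309.9 and 306. Ribosomal protein genes have many pseudogene copies, so their values are uncertain.

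Protein degradation and folding genes moved apart. Proteasome subunits had 25 of 31 higher and 1 lower, PSMD11, with a median of 0.43 (0.27 under median-of-ratios scaling), -0.14 for cisplatin alone and 0.29 for the knockdown alone. PSMC4, an ATPase of the regulatory particle, was at 53.5 and 52.7 FPKM against 101 and 96.4, and PSMB5, the chymotrypsin-like core subunit, at 83.8 and 83.4 FPKM against 134 and 139. Several chaperones of the endoplasmic reticulum fell, PDIA4 from 45.7 and 44.8 to 21.7 and 21.2, CALR from 536 and 519.5 to 308 and 297 and HYOU1 from 52.5 and 57.7 to 29.5 and 30.1, while SEC23B, a coat subunit of transport vesicles, rose from 21.3 and 23.1 to 47.1 and 45.4. The whole unfolded protein response list had 13 higher and 12 lower of 30, and its median went from 0.02 to -0.13, with 10 and 15, under median-of-ratios scaling.

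In the cytosolic heat shock list 9 of 25 rose and 12 fell, or 7 and 14 under median-of-ratios scaling. The list also holds the mitochondrial chaperonin genes HSPE1, which rose, and HSPD1, which fell. HSP90AB1 (ENSG00000096384, chr6:44246166-44253888), the constitutive form of HSP90, was at 594 and 591 FPKM against 120.1 and 121, a change of -2.29 ± 0.046 (SE) in log2 units (limma, adjusted p = 1.15e-08), and 477 ± 16.1 with cisplatin alone and 149.9 ± 6.61 with the knockdown alone. Its inducible paralog HSP90AA1 was at 618 and 626 FPKM against 503 and 507. HSPA8, the constitutive HSP70, was at 782 and 774 FPKM against 395 and 399, and here cisplatin alone had 402 ± 24.8 and the knockdown alone 749 ± 33.3. HSP90AB1 was low in both shZDHHC8 groups and HSPA8 in both cisplatin groups. HSF1, the master regulator of the list, rose from 42.3 and 44.6 to 72.0 and 71.1, and the small heat shock gene HSPB8 from 3.85 and 4.35 to 13.0 and 12.9.

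Cholesterol genes fell. Of 28 genes of cholesterol synthesis and transport 20 fell and 5 rose, with a median of -0.41 (-0.56 under median-of-ratios scaling), -0.72 for cisplatin alone and -0.44 for the knockdown alone. DHCR7, an enzyme of the pathway, was at 33.6 and 31.0 FPKM against 12.8 and 12.7, and SREBF2, the transcription factor of the pathway, at 57.4 and 58.5 FPKM against 25.04 and 24.2. The members that rose included NPC1 and NPC2, which move cholesterol out of lysosomes, NPC2 from 60.8 and 56.8 to 128 and 129. Fatty acid genes had 9 higher and 10 lower of 23, or 4 and 12 under median-of-ratios scaling. The desaturase SCD went from 30.8 and 32.1 to 6.83 and 6.43, FADS2 from 28.4 and 28.5 to 9.63 and 7.81 and the factor SREBF1 from 9.84 and 9.86 to 4.25 and 3.96, while AGPAT2, an acyltransferase of phospholipid synthesis, rose from 35.1 and 34.8 to 69.5 and 72.3.

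Lysosome genes rose, with 24 of 39 higher, 8 lower and a median of 0.33 (0.20 under median-of-ratios scaling), -0.14 for cisplatin alone and 0.37 for the knockdown alone. PSAP, the precursor of the saposins, was at 359.6 and 353 FPKM against 703 and 692, and 311 ± 8.94 with cisplatin alone and 765 ± 1.88 with the knockdown alone. MAP1LC3B, which coats autophagosomes, went from 37.7 and 40.3 to 107 and 108, and the calcium channel MCOLN1 from 11.99 and 11.4 to 27.2 and 27.3, higher than in each single perturbation. LAMP2 fell from 31.8 and 33.4 to 21.8 and 21.4.

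Respiratory chain and ATP synthase genes of the nucleus rose, with 46 of 66 higher, 4 lower and a median of 0.34, or 37 and 8 with a median of 0.19 under median-of-ratios scaling. Those of mitochondrial DNA had 4 of 13 higher and 6 lower, or 2 and 9 under that scaling. NDUFS3, a complex I subunit, was at 38.6 and 35.4 FPKM against 70.6 and 66.4 and COX6A1, of complex IV, at 216 and 201 FPKM against 314 and 308. SDHC and SDHD, of complex II, fell from 49.8 and 55.6 to 33.6 and 36.9 and from 30.0 and 31.5 to 22.3 and 19.8. Of the mitochondrial genes MT-ND2 rose from 1645 and 1588 to 2430.5 and 2379 and MT-CO3 fell from 4236 and 3908 to 3369 and 3134. Mitochondrial transcripts made up 9.81% and 9.64% of the column total in the untreated control and 8.93% and 8.67% in the treated knockdown. In the glycolysis and hypoxia list 12 of 33 rose and 13 fell, or 7 and 16 under median-of-ratios scaling, with ENO1 at 1662 and 1674 FPKM against 1205 and 1212, lower, and the hypoxia gene ADM at 12.8 and 12.9 FPKM against 31.9 and 32.1, higher.

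Antioxidant and drug handling genes that bear on platinum were mixed. The NRF2 list had 18 of 36 higher and 8 lower, or 13 and 12 under median-of-ratios scaling. TXNRD1, thioredoxin reductase, rose from 72.1 and 75.04 to 164 and 169, and the aldo-keto reductase AKR1C3 from 61.4 and 61.3 to 114 and 117, between 19.2 ± 2.30 with cisplatin alone and 184 ± 7.99 with the knockdown alone. HMOX1, heme oxygenase, fell from 18.9 and 19.6 to 9.33 and 9.32. Among copper handling genes SLC31A1, the importer that can carry platinum, rose from 7.95 and 8.10 to 18.8 and 19.1, and the copper chaperone ATOX1 from 36.6 and 34.8 to 81.9 and 92.0. ATP7B, a copper exporter, fell from 4.496 and 4.56 to 3.24 and 3.07. The metallothionein MT1X rose from 21.7 and 22.2 to 59.1 and 48.8.

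In a list of 14 genes, channels and transporters with the glutathione transferase GSTP1, 6 rose and 6 fell, GSTP1 among the falls. LRRC8A, the core subunit of the volume-regulated anion channel, rose from 22.9 and 22.8 to 58.1 and 58.2, and LRRC8D, the subunit that lets platinum drugs through, fell from 16.1 and 15.1 to 6.30 and 6.31. The exporters ABCC1 and ABCC4 fell from 24.9 and 24.8 to 11.1 and 10.9 and from 11.3 and 10.9 to 3.51 and 3.73. LRRC8D and ABCC4 were lower than in either single perturbation, at 9.73 ± 0.684 with cisplatin alone and 9.61 ± 0.440 with the knockdown alone for LRRC8D.

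Matrix and adhesion genes fell. Of 35 extracellular matrix genes 24 fell and 8 rose, with a median of -0.67 (-0.83 under median-of-ratios scaling, with 4 and 24), -0.38 for cisplatin alone and -0.23 for the knockdown alone. COL18A1, a basement membrane collagen, was at 161 and 163 FPKM against 61.1 and 58.7, THBS1, thrombospondin, at 159.9 and 162 FPKM against 67.2 and 68.3 and LOXL2, a collagen crosslinking oxidase, at 117 and 117 FPKM against 50.8 and 51.5. LAMB3, a laminin chain of epithelial basement membranes, rose from 54.9 and 57.5 to 168 and 168, and FN1, fibronectin, from 108 and 112 to 123 and 124, far below its level of 299 ± 7.47 with the knockdown alone. Of 14 integrins 9 fell and 3 rose. ITGA3, a laminin receptor subunit, fell from 347 and 349.9 to 153 and 149.9, and ITGAV, of the RGD-binding kind, rose from 31.4 and 33.6 to 48.9 and 49.6.

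Among matrix proteases MMP2, a gelatinase, rose from 26.2 and 24.7 to 80.6 and 78.2, and 15.98 ± 0.0412 with cisplatin alone and 101 ± 0.59963 with the knockdown alone, in contrast to the fall of MMP1. The plasminogen activators PLAU and PLAT rose from 119 and 118 to 219 and 215 and from 6.68 and 5.78 to 19.2 and 17.6. In the YAP and TEAD list, which holds targets and the factors of the pathway itself, 18 of 27 fell and 4 rose, with a median of -0.34, against 0.21 for cisplatin alone and -0.40 for the knockdown alone. The factor genes YAP1, WWTR1, TEAD1, TEAD2 and TEAD3 are among the falls, and LATS2, a kinase that restrains YAP, among the rises. Of the targets IGFBP3, which binds insulin-like growth factors, was at 150.0 and 149 FPKM against 27.9 and 25.8, CCN2 fell from 29.3 and 31.3 to 22.4 and 22.5 and ANKRD1 rose from 10.4 and 8.73 to 57.0 and 52.7. In the TGF-beta list 11 of 29 rose and 9 fell, or 9 and 12 under median-of-ratios scaling. ID1 and ID3, targets of BMP signalling, were at 371 and 354 FPKM against 58.6 and 62.8 and at 42.4 and 43.2 FPKM against 8.82 and 7.45, and SMAD6, an inhibitor of that branch, at 11.9 and 12.02 FPKM against 3.39 and 3.29, all lower.

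Keratins fell, 9 of 12 against 2 that rose. KRT14, the partner of KRT5, went from 10.1 and 10.0 to 1.16 and 1.18, KRT17 from 26.9 and 27.3 to 10.5 and 9.41 and the simple keratin KRT19 from 116 and 114 to 50.8 and 47.5. KRT15 rose from 2.18 and 1.59 to 10.4 and 9.81. The basal keratins KRT5, KRT14 and KRT17 summed to 110 to 111 FPKM in the untreated control and 18.4 to 18.8 in the treated knockdown, and 13 epithelial markers, 8 of them at 1 FPKM or more, to 89.4 to 91.2 and 43.1 to 44.8. Among epithelial markers CLDN4, a tight junction claudin, rose from 3.04 and 3.31 to 14.8 and 14.5, while CDH1, E-cadherin, was at most 0.392 FPKM in any library. Osteoblast lineage markers summed to 181 to 187 FPKM against 238 to 242, most of it SPP1. Mesenchymal markers summed to 1885 to 1935 against 1433 to 1454, most of it VIM, which went from 1789 and 1733 to 1263 and 1281. The other mesenchymal markers, CDH2, FN1, ZEB1 and TWIST1, were higher in both treated knockdown libraries than in both controls, though TWIST1 did not pass. The part of cell make-up in the matrix, keratin and lineage results was not tested. Of 9 tested osteoblast genes 2 rose and 2 fell. SPP1, osteopontin, rose from 147 and 138 to 196 and 197, and SPARC, osteonectin, from 5.14 and 4.34 to 11.2 and 9.499. COL1A1 fell from 4.91 and 5.25 to 3.12 and 3.28.

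**Figure D4:**
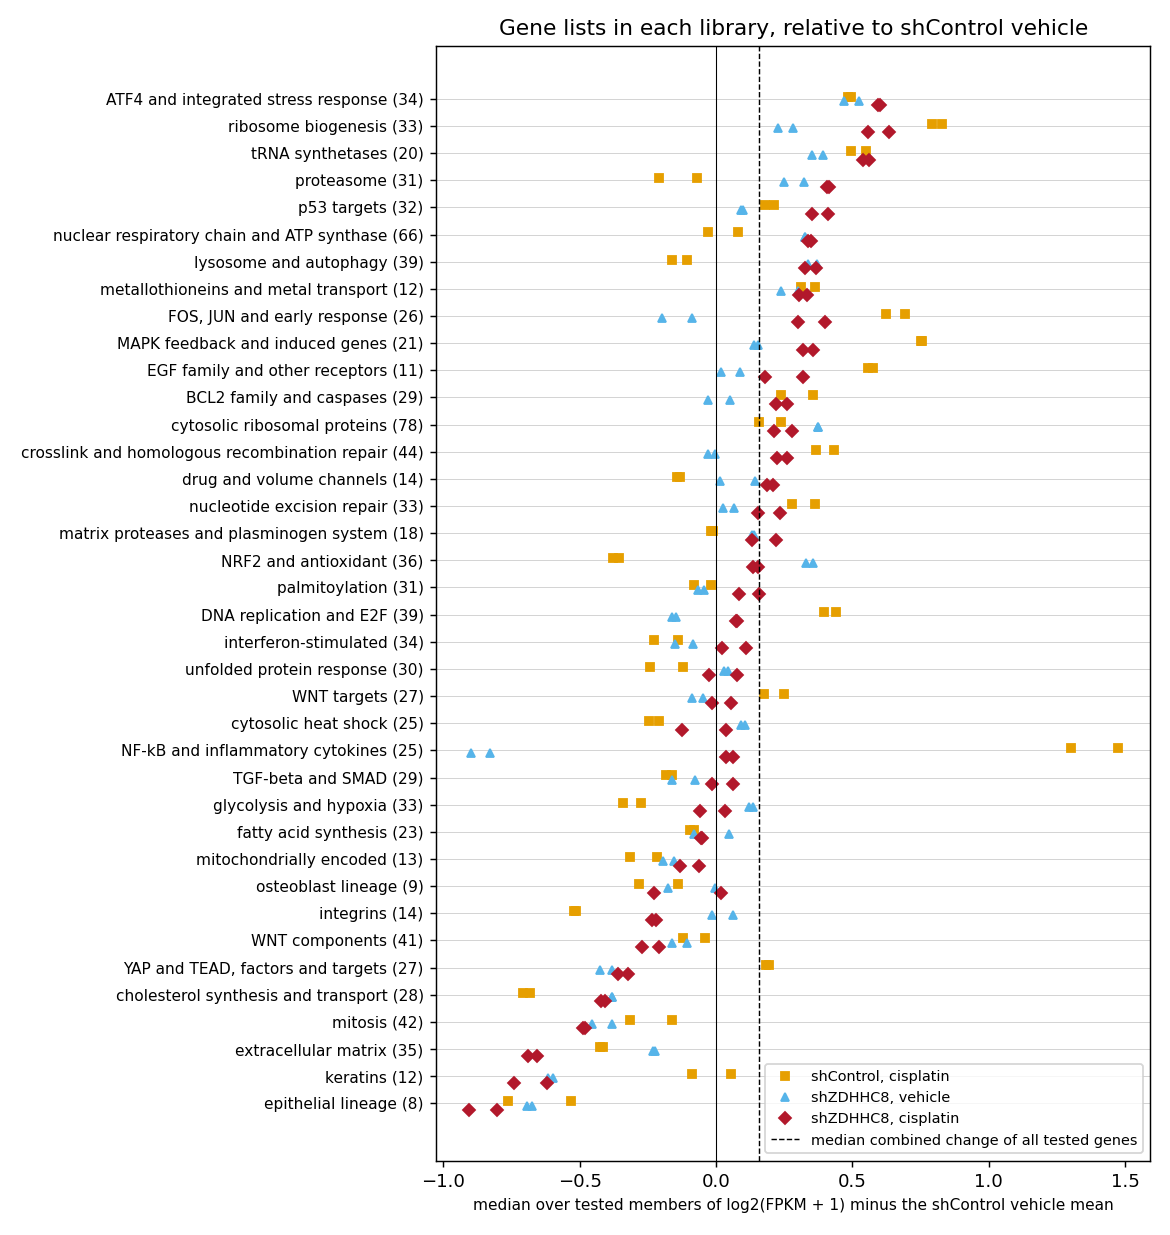
For every list with at least 8 tested members (number in brackets), the median over members of log2(FPKM + 1) minus the shControl vehicle mean, 1 point per library of the other 3 groups, ordered by the combined change. Red diamonds (shZDHHC8 cisplatin) lie to the right of the dashed median of all genes for the integrated stress response, ribosome biogenesis, tRNA synthetase and proteasome lists and far to the left for mitosis, extracellular matrix and keratins, and the NF-kB list shows cisplatin alone and the knockdown alone on opposite sides.

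Genes of great length fell. Protein-coding genes were sorted by genomic span, since cisplatin adducts are known to stall RNA polymerase. The median change was 0.23 for the 2177 genes under 10 kb, 0.22 for 10 to 50 kb, 0.12 for 50 to 100 kb and -0.08 for 100 to 500 kb. Of the 117 genes that span 500 kb or more, 69.2% fell and 16.2% rose, 30.8% fell by at least 1, and the median was -0.76. In that class the median was -0.48 with cisplatin alone and -0.07 with the knockdown alone. Those genes were also lower in level, with a median of 3.70 FPKM in the untreated control against 12.9 for genes under 10 kb. The order held with a pseudocount of 0.1 (-0.96 for the longest class), a common total (-0.83) and median-of-ratios scaling (-0.89).

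**Figure D5:**
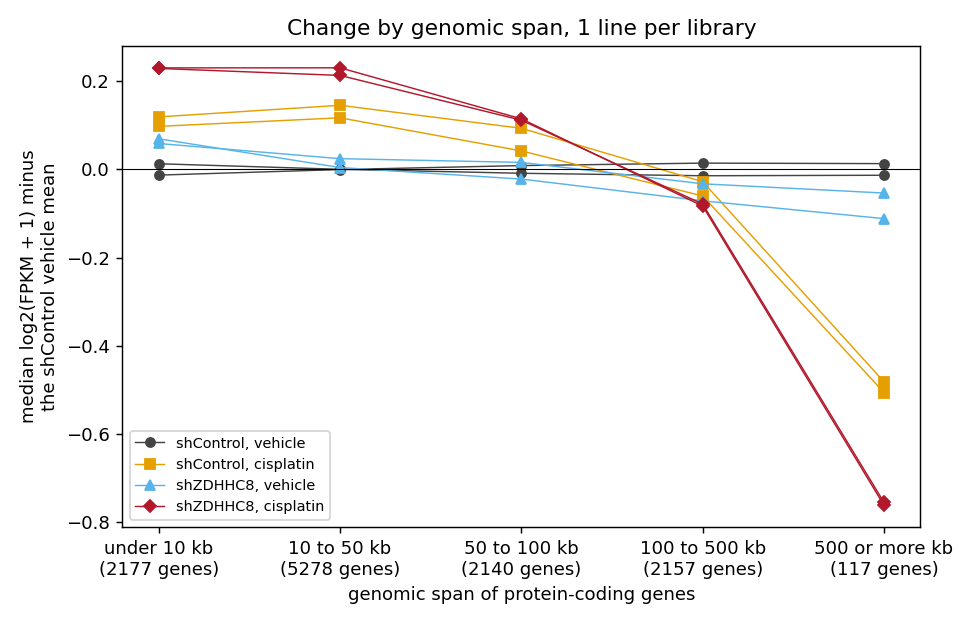
Median over genes of log2(FPKM + 1) minus the shControl vehicle mean, by genomic span of protein-coding genes, with 1 line per library. Both shZDHHC8 cisplatin libraries go from 0.23 for the shortest genes to -0.76 for those of 500 kb or more, and both cisplatin-alone libraries go from 0.12 and 0.098 to -0.48 and -0.51.

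By class of gene, 45.4% of 11869 protein-coding genes rose and 25.8% fell, and of 1154 long non-coding genes 48.9% rose and 12.8% fell. With a change of at least 1, the long non-coding genes had 10.7% higher and 2.25% lower, and the protein-coding ones 4.20% and 4.13%.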

How the data were processed

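Poly(A)-selected RNA of 8 libraries was sequenced, and the authors supplied a single table of normalized values by gene. Its unit is not named there; FPKM was inferred for the deposited columns from their range and unequal totals, so log2 values depend on that reading. The build is hg38, per the submitters' processing notes, and the aligner, the counting tool and the strandedness were not given in the sources used here. FPKM values were used as deposited, as log2(FPKM + 1). Limma 3.58.1 in R 4.3.3 fitted a mean per group to all 8 libraries (lmFit, eBayes with trend, residual degrees of freedom 4, prior 4.64), and the contrast was shZDHHC8 cisplatin minus shControl vehicle, with Benjamini-Hochberg adjustment over 13495 genes. The SE of the contrast was 0.0792 at the median gene. On simulated data 100% of genes changed by 1 and 99% of those changed by 0.5 were recovered, with 4.33% of calls false. There only 100 genes of each size were changed among 13495, with independent noise and no shift of the other genes. In the data 69.7% of genes passed, so these rates do not carry over to the calls reported. P-values measure the spread between 2 libraries a group, which may be technical where the cultures were not grown apart.

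The members and the 40 gene lists, with 1255 entries, were chosen with earlier results of these data known, and no list was tested: counts and medians stand beside those of all genes. Genes are named by a rule: ZDHHC8 and CTNNB1; the 12 largest rises and falls among called protein-coding genes with at least 5 FPKM in the higher group and the same direction in all 4 pairs of libraries; the 6 genes farthest above and below all other groups; up to 4 called members of each list with the smallest p; and up to 6 by size for the WNT and palmitoylation lists. A few genes that the rule names are not reported here. Other list members named in the text were chosen after their values were seen. Of the 183 genes named by the rule, exons of 35 overlap another GENCODE gene on the same strand and 43 on the opposite strand only, and since strand is not given such values are uncertain. Promoters are RefSeq windows on GRCh38.p14, used for letters only. Alternatives were another pseudocount (0.1), other filters, no trend, the 4 compared libraries alone, a replicate block, 2 scalings, protein-coding genes alone, a size threshold and each library left out.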

Additional observations from a re-analysis of the deposited data

Results flagged for a closer look

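The combined change equals the sum of both single changes only where the effect of cisplatin is the same in both lines. The interaction is the effect of cisplatin in shZDHHC8 cells minus that in shControl cells on the log2 scale. It passed an adjusted p of 0.05 in limma for 28 of 37 named genes, against 30.4% of all tested genes. The 37 are ZDHHC8, CTNNB1 and the genes named by size. All but ZDHHC8 and CTNNB1 were chosen by size on the same libraries. For those farthest above or below every group the choice itself favours an interaction, so the share supports nothing. For CTNNB1, which is among the 28, the interaction was 0.343.

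Among the rises, the change with cisplatin was less positive in shZDHHC8 cells for TM4SF19 (-1.37), IL1B (-1.32), UPP1 (-1.08), ANGPTL4 (-0.96) and AOX1 (-0.549), and more positive for GPNMB (0.847), EVI2B (0.614) and CCL26 (0.579). For the falls every value that passed was positive, so the change with cisplatin was less negative in shZDHHC8 cells: VAV3 (2.9), SAMD11 (2.34), IDO1 (1.99), UGT1A6 (1.32), KRT5 (1.12), EGR1 (0.857), FGFBP1 (0.715), C3 (0.673) and MMP1 (0.561). C3, IDO1, VAV3 and SAMD11 ended at low levels, where log2(FPKM + 1) leaves little room for a further fall. The part of that limit in these values was not tested. EGR1 rose with cisplatin in shZDHHC8 cells and fell with it in shControl cells.

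Of the genes above all groups, H2BC11 (1.59), SH3BGR (1.19), NME1-NME2 (1.09), AFP (1.02) and MRPS23 (0.947) had a more positive change with cisplatin in shZDHHC8 cells. Of those below all groups, RNASET2 (-1.65), PTPRM (-0.977), LRP5 (-0.722), DHRS2 (-0.643) and HSPG2 (-0.54) had a more negative one in shZDHHC8 cells.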

How the results depend on the processing

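The counts of 6114 higher and 3292 lower genes stayed within 1.5 times under each pseudocount, filter, trend, scaling, gene class and library set tried. Requiring a log2 change of at least 1 left 649 and 524. Of 80 counts of list members, higher or lower, 15 moved by over 1.5 times under median-of-ratios scaling, 8 under the common total, 2 with a pseudocount of 0.1 and 1 with the replicate block. Leaving out a library gave 5296 to 6144 higher and 2762 to 3304 lower. Replicate numbers did not pair the samples: deviations of same-numbered libraries from their group means correlated at -0.0515 to 0.0198. With the replicate block 6032 genes were higher and 3246 lower. ZDHHC8 passed in no setting, and its change ran from -0.067 to 0.0036 over the libraries left out, turning sign without shZDHHC8 cisplatin replicate 2 (0.0036, limma adjusted p = 0.987). Median-of-ratios scaling gave -0.18. CTNNB1 passed in every setting run, at -0.42 to -0.22. No gene named by the rule reversed. Calls were lost for BLOC1S5-TXNDC5 without any compared library, without a trend and with no filter, for KDR in 13 settings and for MT-ATP6 with no filter, and the cause was not tested. Depth cannot be had from FPKM, so low genes carry an unknown counting error.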
